A study of Mus musculus with 6 samples.

Results

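The cardiac muscle and chamber genes are 36 genes of the heart wall, set out here in the trunks of Arid3b-null and wild-type mouse embryos. They were listed by name, with earlier results of these data known, and grouped as transcriptional regulators, thick filament, thin filament, titin with the Z-disc and M-band, chaperones and muscle-restricted cofactors, calcium handling, and secreted or membrane proteins. Probe accessions matched 35 of the 36 genes, out of 32530 genes and accessions on the arrays, and no probe was matched to Smpx. Of these 35, 32 were bright enough to be tested, among 19802 tested genes in all. Hspb7, Bmp10 and Pln were not bright enough, and Csrp3 and Myom2 entered the test only through the wild-type arrays.

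Arid3b encodes a DNA-binding protein of the AT-rich interaction domain family. Arid3b-null trunks (3 samples) were compared with wild-type trunks (3 samples) at embryonic day 9.5, and each sample was RNA pooled from 4 embryos. The dissected piece ran from the level of the otic vesicle back to somite 15 and kept the forelimb buds; the labels do not say whether the heart, which lies at this level, was left in place. They give neither the strain, the sex, nor the deleted part of Arid3b, and the spread between samples is that between pools.

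In the early heart tube, contraction depends on thick filaments of myosin and thin filaments of actin, tropomyosin and troponin, which titin and the Z-disc and M-band proteins hold in register. Calcium released through the ryanodine receptor binds troponin C and starts contraction, and the pump of the sarcoplasmic reticulum takes it back. Nkx2-5 and the GATA factors act upstream of many of these genes, and chambers later come to differ in the myosin chains, regulators of the calcium pump and secreted peptides they make. Several members, among them Tnnc1, Tnni1, Myl3, Actc1, Ttn, Myom2, Smyd1 and Sln, are also made in developing or slow skeletal muscle, and Gata4 and Gata6 also in foregut and the mesenchyme around it.

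Values below are log2 processed signals less the 75th percentile of the same array, so that 0 is a signal equal to that percentile. A positive change means a higher signal in Arid3b-null than in wild type. The percentile was 617 to 669 signal units on the Arid3b-null arrays and 611 to 844 on the wild-type arrays, and no spot was saturated. Arid3b read 0.54, 0.65 and 0.46 in Arid3b-null replicates 1, 2 and 3, against 2.18, 2.57 and 1.97 in wild type, a change of -1.69 ± 0.17 (log2, SE; limma, Benjamini-Hochberg adjusted p = 0.00154). Arid3b-null replicate 1 was therefore as low in Arid3b as the other Arid3b-null arrays. The other tested probes of Arid3b, which are dimmer, differed by -1.90 ± 0.18 and -3.23 ± 0.20. Each was well above background on 2 of 3 Arid3b-null arrays and entered the test only through wild type, so the sizes of these folds are uncertain.

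One array stood apart in cardiac genes. In Arid3b-null replicate 1 the cardiac myosin gene Myh6 lay 25.7-fold below the mean of Arid3b-null replicates 2 and 3. Ankrd1 lay 13.0-fold below that mean, Nppa 9.65-fold, Csrp3 6.19-fold, Myl7 5.59-fold and Mybpc3 4.48-fold. The Csrp3 signal of that array was not well above background, so the size of its fold is uncertain. Of 19795 genes with a value on these arrays, 11 (0.0556%) lay at least 4-fold below in this way, and these 6 members were among them. Albumin, Serpina6 and Hsd3b1 were 3 of the other 5, at 8.33-fold, 4.47-fold and 7.73-fold, and the remaining 2 are accessions without a symbol here. The albumin (Alb) signal of that array was likewise not well above background. At 2-fold, 9 of the 32 members lay below and 0 above, where 0.419% of all genes lay below and 1.43% above.

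A smaller difference of the same sign was seen between the wild-type arrays. Wild type replicate 1 lay 2.80-fold below the mean of wild type replicates 2 and 3 for Myh6, 2.48-fold for Csrp3, 2.45-fold for Myom1 and 2.41-fold for Nppa. These 4 of 32 members were at least 2-fold low and 0 at least 2-fold high, against 0.682% and 0.606% of all genes. Both replicate 1 arrays were on the same slide, per the file headers, as were both replicate 2 arrays and both replicate 3 arrays. Slide, dissection and embryo differences were not recorded separately, so their part in this spread was not tested. In RNA of whole pieces of tissue, fewer heart muscle cells and less RNA per cell cannot be told apart.

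The spread made most members imprecise. The median SD between arrays was 0.42 in Arid3b-null and 0.33 in wild type for the 32 tested members, against 0.17 and 0.16 for all tested genes. Arid3b-null replicate 1 was the lowest of the 6 arrays for 21 of the 32 members, against 7.24% of all genes. It was the lowest for all 7 thick filament genes, for 5 of 6 thin filament genes and for 0 of 4 transcriptional regulators. Where leaving out that array changes the call or the sign of a member, the value without it is given beside the result.

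**Figure D1:**
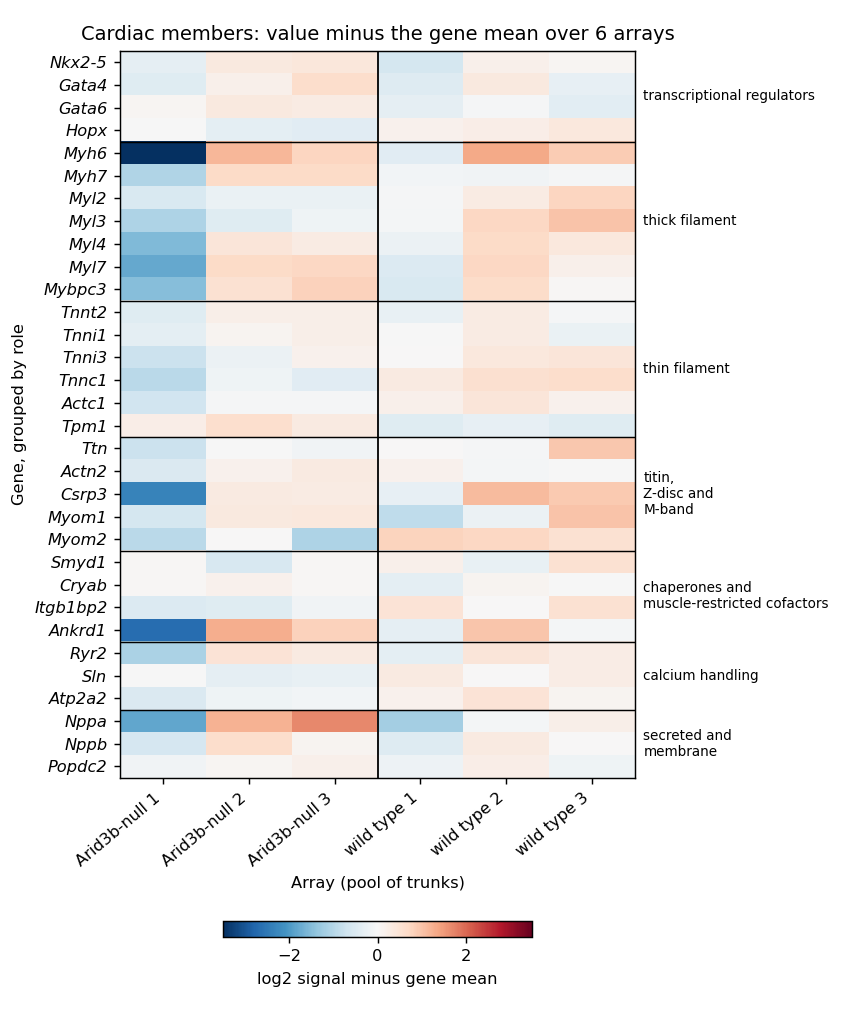
Log2 signal of each tested cardiac gene (rows, by role) on each array (columns, Arid3b-null left of wild type), after subtracting the gene's mean over the 6 arrays; red is above and blue below that mean. The Arid3b-null replicate 1 column is blue for most sarcomere genes, deepest for Myh6, Ankrd1 and Csrp3, and near the mean for Smyd1, Cryab and Sln.

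Start regions are shown for 4 of the 6 members furthest apart between the pools, since these 6 were low together in 1 array. Those of Csrp3, which hold none of the matches named below, and of Mybpc3, which holds a MEF2 element, are not shown. Each window spans the annotated start, most of it before the start, and comes from RefSeq on build GRCm38.p6, which is not the build named in the array header. Capitals mark matches to a TATA box (TATAAA, gene strand), a GATA element (AGATAA, both strands), an M-CAT element (CATTCC, both strands), and a CArG box and a MEF2 element by name (both strands); no printed matches overlap.
Myh6 promoter (chr14:54966558-54966857, minus strand): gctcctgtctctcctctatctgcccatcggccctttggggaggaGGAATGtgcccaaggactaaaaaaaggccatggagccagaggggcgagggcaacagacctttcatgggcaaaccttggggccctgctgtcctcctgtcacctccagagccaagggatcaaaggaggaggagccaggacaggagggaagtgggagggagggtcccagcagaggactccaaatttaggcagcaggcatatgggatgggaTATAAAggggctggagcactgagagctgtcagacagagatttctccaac
Ankrd1 promoter (chr19:36119795-36120094, minus strand): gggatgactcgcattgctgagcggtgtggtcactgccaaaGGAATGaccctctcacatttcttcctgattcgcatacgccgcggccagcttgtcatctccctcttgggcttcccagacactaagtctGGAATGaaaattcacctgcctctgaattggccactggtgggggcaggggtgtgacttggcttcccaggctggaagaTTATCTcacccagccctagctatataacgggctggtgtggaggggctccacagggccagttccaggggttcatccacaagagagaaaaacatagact
Nppa promoter (chr4:148000472-148000771, plus strand): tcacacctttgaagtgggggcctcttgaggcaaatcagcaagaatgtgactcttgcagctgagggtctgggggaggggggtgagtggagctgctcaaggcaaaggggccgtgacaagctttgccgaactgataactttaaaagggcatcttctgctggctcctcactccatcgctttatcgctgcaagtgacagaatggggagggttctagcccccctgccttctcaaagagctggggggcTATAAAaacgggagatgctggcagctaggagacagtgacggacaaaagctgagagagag
Myl7 promoter (chr11:5898733-5899032, minus strand): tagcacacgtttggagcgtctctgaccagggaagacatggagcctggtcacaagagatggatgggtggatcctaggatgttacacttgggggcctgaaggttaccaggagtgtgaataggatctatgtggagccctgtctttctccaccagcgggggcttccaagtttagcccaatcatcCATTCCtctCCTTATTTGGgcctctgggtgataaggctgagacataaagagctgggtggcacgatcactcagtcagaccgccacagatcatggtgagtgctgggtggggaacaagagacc

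Of all 32851 start regions of this length, 8.32% held the TATA box, 11.2% the GATA element, 14.7% the M-CAT element, 1.63% the CArG box and 1.86% the MEF2 element. Among the 6 members that were at least 4-fold low in Arid3b-null replicate 1, 2 held the TATA box, 1 the GATA element, 3 the M-CAT element, 1 the CArG box and 1 the MEF2 element. Among 23 other members with a start region the counts were 3, 8, 9, 4 and 1 in the same order. A member was counted if any of its start regions held the match, whereas the shares are per start region. The counts and the shares are therefore not directly comparable. The counts are descriptions of these windows, and a match is not a bound site.

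Across all 6 arrays, 6 members passed the test. Tpm1 and Gata6 rose, and Tnnc1, Myom2, Itgb1bp2 and Hopx fell. That is 2 of 32 higher and 4 of 32 lower, where 13.6% of all tested genes were called higher and 12.9% lower, 26.6% in all, and 6 of 32 is below that share. Of the 4 lower, Myom2 entered the test only through wild type. The median change of the 32 members was -0.29, and that of all tested genes was -0.04. Within the slides of replicates 1, 2 and 3 the members' medians were -0.66, -0.15 and -0.01.

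Without Arid3b-null replicate 1 the median change of the members was 0.18, and 4 members were higher (Tpm1, Gata6, Myh7 and Nppa) and 2 lower (Tnnc1 and Hopx), where 9.58% and 10.3% of all genes were called (19.9% in all). With the slide as a block 2 members were higher (Tpm1 and Gata6) and 6 lower (Tnnc1, Myom2, Itgb1bp2, Myl2, Myl3 and Tnni3), where 12.3% and 11.9% of all genes were called (24.1% in all). With both replicate 1 arrays left out, 1 member was higher (Nppa) and 1 lower (Myl3), against 3.18% and 2.54% of all genes (5.72% in all). Tpm1, Gata6 and Tnnc1 were called over all 6 arrays, without Arid3b-null replicate 1 and with the block, and no member was called in all 4 fits.

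**Figure D2:**
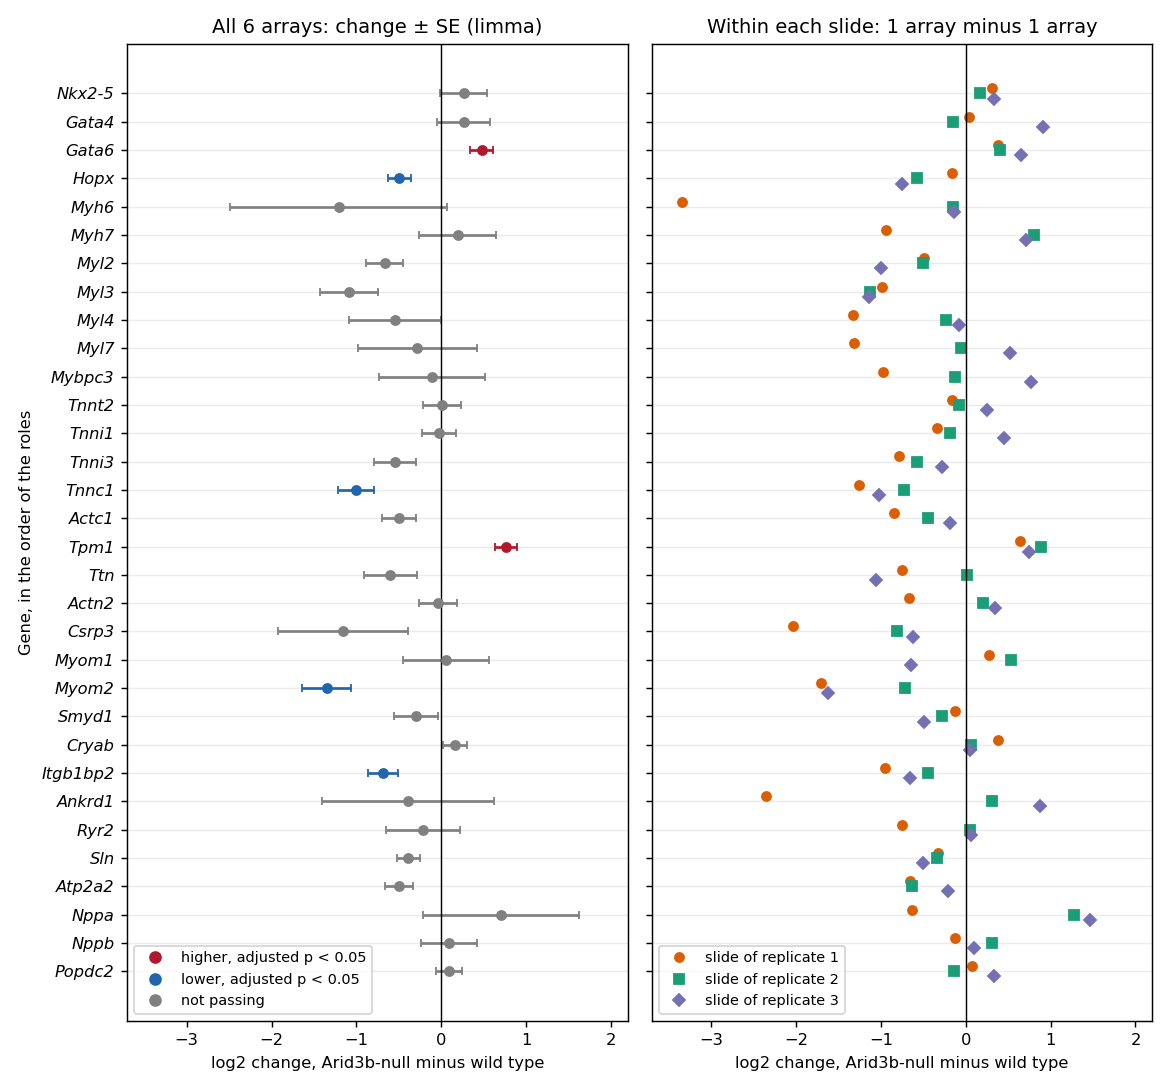
Left, log2 change (Arid3b-null minus wild type) of each tested cardiac gene with its SE from the limma fit over 6 arrays, red for higher, blue for lower and grey for not passing. Right, the difference between the Arid3b-null and the wild-type array of each slide; the slide of replicate 1 lies far left of the others for Myh6, Ankrd1 and Csrp3, while Tpm1 and Tnnc1 keep their sign on all 3 slides.

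The 4 transcriptional regulators did not move together: 1 rose, 1 fell and 2 did not pass. Gata6, a zinc finger factor of heart and gut, read 0.94, 1.22 and 1.15 in Arid3b-null against 0.56, 0.82 and 0.50 in wild type. Its Arid3b-null arrays all lay above the wild-type arrays, and it rose by 0.48 ± 0.13, or 1.39-fold (adjusted p = 0.0420). Hopx, a homeodomain protein of heart muscle that does not bind DNA itself, read -2.09, -2.40 and -2.46 in Arid3b-null against -1.92, -1.83 and -1.71 in wild type.

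Hopx fell 1.41-fold (change -0.49 ± 0.14, adjusted p = 0.0392), and its other probe differed by -0.56 ± 0.13. The Hopx call was lost in the fit blocked by slide (adjusted p = 0.0741), and both calls were lost without Arid3b-null replicate 2 or 3 (adjusted p = 0.114 and 0.106 for Gata6, 0.106 and 0.105 for Hopx), without wild type replicate 1 or 3 (0.130 and 0.107 for Gata6, 0.0798 and 0.101 for Hopx), and for Hopx without wild type replicate 2 (0.0912). Gata6 did not pass with median scaling (adjusted p = 0.0909), and neither passed when normexp subtracted a single array-wide background, called array-wide normexp below (adjusted p = 0.0560 for Gata6 and 0.125 for Hopx).

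Nkx2-5, the homeodomain factor that marks heart muscle from its first stages, read -2.88, -2.22 and -2.16 in Arid3b-null against -3.18, -2.39 and -2.49 in wild type. Within each slide its Arid3b-null array was the higher one, by 0.31, 0.17 and 0.33, but the groups overlap and it did not pass (change 0.27 ± 0.28, adjusted p = 0.514). Gata4, the zinc finger partner of Nkx2-5, read -0.41, 0.19 and 0.63 in Arid3b-null against -0.46, 0.34 and -0.28 in wild type. The Gata4 groups overlap as well (change 0.27 ± 0.31, adjusted p = 0.570). Compared with Myh6, these regulators were little lower in Arid3b-null replicate 1, at 1.61-fold for Nkx2-5, 1.77-fold for Gata4 and 1.19-fold for Gata6 below the mean of the other Arid3b-null arrays.

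None of the 7 thick filament genes passed the test over all 6 arrays. Myh6, which encodes the alpha myosin heavy chain, read -2.03, 2.86 and 2.44 in Arid3b-null against 1.31, 3.01 and 2.58 in wild type. Arid3b-null replicates 2 and 3 lay within the range of wild type, and replicate 1 alone lay below it. The within-slide differences were -3.34, -0.15 and -0.14 for replicates 1, 2 and 3, and the change of -1.21 ± 1.28 (adjusted p = 0.522) turned to 0.35 without Arid3b-null replicate 1 (adjusted p = 0.651).

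The second Myh6 probe, much dimmer, was also lowest in the replicate 1 array of each group: -7.24, -4.53 and -4.68 in Arid3b-null against -5.44, -4.00 and -4.41 in wild type, the first of these not well above background. Myh7, which encodes the beta myosin heavy chain, read -0.51, 1.21 and 1.19 in Arid3b-null against 0.43, 0.40 and 0.48 in wild type. Arid3b-null replicates 2 and 3 were above every wild-type array and replicate 1 was below them all. Over 6 arrays Myh7 did not pass (change 0.19 ± 0.45, adjusted p = 0.782), and without Arid3b-null replicate 1 it was 0.76 higher on the log2 scale (adjusted p = 0.0132). Myh6 and Myh7 are close relatives whose probes may share signal, which was not tested.

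All light chain members were lowest in Arid3b-null replicate 1, and within wild type they were lowest in replicate 1. They differed in whether the groups overlap. Myl7, the regulatory light chain of the whole early heart tube and later of the atria, read -1.77, 0.69 and 0.74 in Arid3b-null against -0.46, 0.74 and 0.22 in wild type. Myl4, the essential light chain later kept in the atria, read 1.18, 3.14 and 3.01 in Arid3b-null against 2.50, 3.37 and 3.09 in wild type. In both genes the replicate 1 arrays were the 2 lowest of the 6, as for Myh6, with overlapping groups and adjusted p = 0.796 for Myl7 and 0.493 for Myl4. Their changes of -0.28 ± 0.70 and -0.54 ± 0.54 were 0.55 and 0.090 without Arid3b-null replicate 1.

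Myl3 and Myl2, the light chains of ventricle and, for both, slow skeletal muscle, had groups that do not overlap. Such a lack of overlap was seen in 46.2% of all genes with a value on every array. Myl3 read -2.43, -1.77 and -1.50 in Arid3b-null against -1.43, -0.64 and -0.35 in wild type, so every Arid3b-null array was lower. Its change was -1.09 ± 0.34, with within-slide differences of -0.99, -1.13 and -1.14. It missed the threshold over 6 arrays (adjusted p = 0.0574) and passed in the fit blocked by slide (adjusted p = 0.00772), under median scaling (0.0466), on the values the authors deposited (0.0489), under array-wide normexp (0.0478), without wild type replicate 1 (0.0324) and with both replicate 1 arrays left out (0.0469).

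Myl2 read -4.13, -3.84 and -3.85 in Arid3b-null against -3.64, -3.33 and -2.84 in wild type, again with no overlap. Its change of -0.67 ± 0.21 did not pass over 6 arrays (adjusted p = 0.0610) and passed in the fit blocked by slide (adjusted p = 0.0367) and without wild type replicate 1 (0.0426). Mybpc3, the myosin-binding protein C of the heart, read -1.99, 0.03 and 0.31 in Arid3b-null against -1.02, 0.16 and -0.46 in wild type, with overlapping groups and a change of -0.11 ± 0.63, or 0.61 without Arid3b-null replicate 1. Its replicate 1 arrays were again the 2 lowest.

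**Figure D3:**
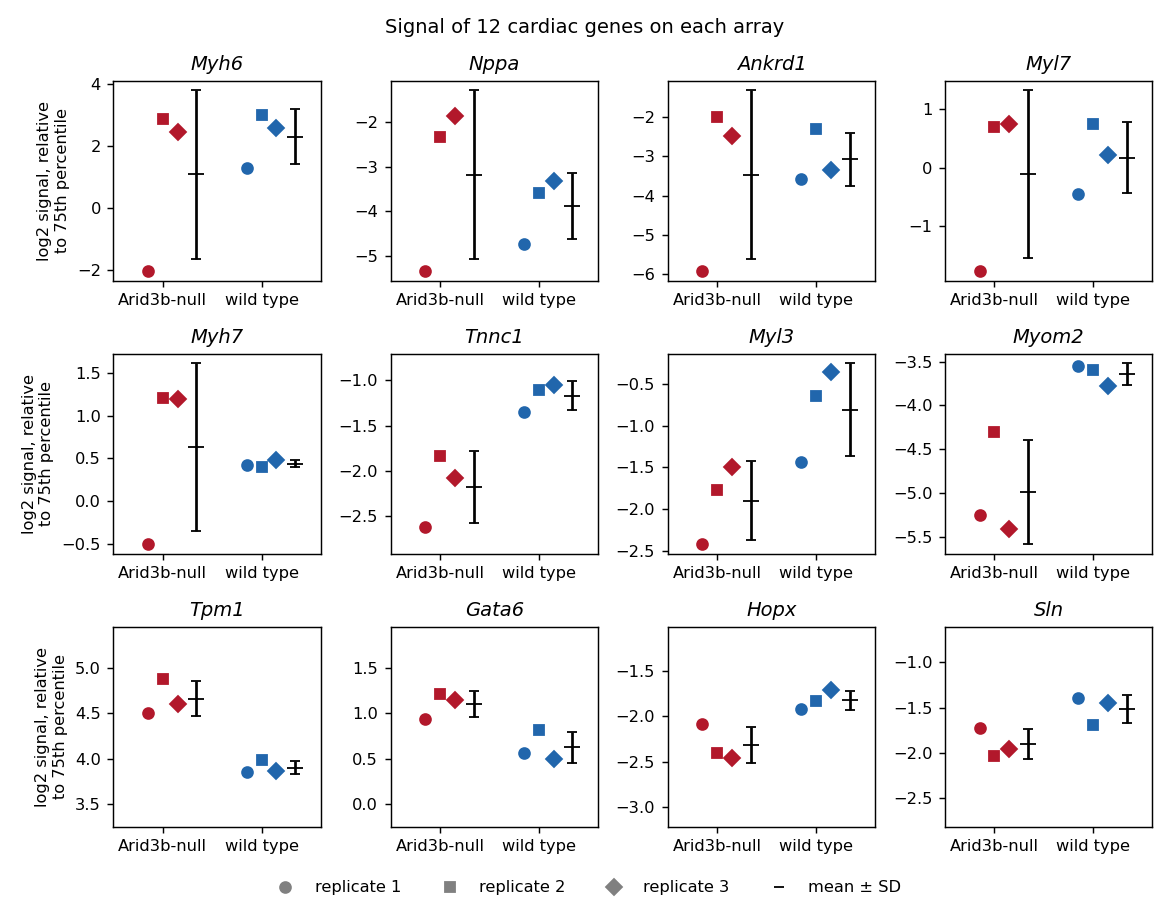
Log2 signal relative to each array's 75th percentile for 12 cardiac genes, Arid3b-null (red) left of wild type (blue); the marker gives the replicate number and the black bar the mean with its SD over 3 arrays. Myh6, Nppa, Ankrd1, Myl7 and Myh7 have 1 low Arid3b-null array, replicate 1, whereas Tnnc1, Myl3, Myom2, Tpm1, Gata6, Hopx and Sln have groups that do not overlap.

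In the thin filament 1 gene rose, 1 fell and 4 did not pass. Tnnc1, which encodes troponin C of heart and slow skeletal muscle, read -2.61, -1.84 and -2.07 in Arid3b-null against -1.35, -1.10 and -1.05 in wild type. It was lower on every slide, by 1.26, 0.73 and 1.03 on the log2 scale. The change was -1.01 ± 0.21, a 2.01-fold fall (adjusted p = 0.0167), and it held without Arid3b-null replicate 1 (adjusted p = 0.0252). Without wild type replicate 2 or 3 the adjusted p was 0.0507 and 0.0509, and without a filter on dim probes 0.0626.

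Tpm1, which encodes a tropomyosin of muscle with splice forms in most other cells, read 4.50, 4.88 and 4.60 in Arid3b-null against 3.86, 3.99 and 3.86 in wild type on its brightest probe. It rose 1.69-fold (change 0.76 ± 0.13, adjusted p = 0.00834). Its other 4 probes, designed to several transcripts, differed by 0.85 ± 0.15, 0.55 ± 0.11, 0.36 ± 0.30 and 0.09 ± 0.13. The last 2 of these did not pass, and the one with the difference of 0.36 has overlapping groups, with wild type replicate 3 at 0.07 and the other arrays at 1.15 to 1.22.

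Actc1, the cardiac alpha-actin gene that is also the main actin of early myotome, read 2.92, 3.57 and 3.56 in Arid3b-null against 3.77, 4.02 and 3.75 in wild type. All Arid3b-null arrays were lower, but the change of -0.49 ± 0.20 did not pass (adjusted p = 0.116). Tnni3, the cardiac troponin I gene, read -4.60, -4.04 and -3.68 in Arid3b-null against -3.81, -3.47 and -3.40 in wild type. Its groups overlap, and of the fits made it passed only in the one blocked by slide (change -0.55, adjusted p = 0.0489).

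Tnnt2, the cardiac troponin T gene and a general marker of heart muscle, read 0.52, 1.15 and 1.15 in Arid3b-null against 0.68, 1.23 and 0.89 in wild type. Tnni1, the slow troponin I gene that the embryonic heart uses, read 0.85, 1.31 and 1.41 in Arid3b-null against 1.20, 1.50 and 0.96 in wild type. Both had changes near 0, 0.00 ± 0.22 for Tnnt2 and -0.03 ± 0.20 for Tnni1, which without Arid3b-null replicate 1 were 0.21 and 0.14. In Arid3b-null replicate 1 they lay only 1.55-fold and 1.42-fold below the mean of the other Arid3b-null arrays, where Myh6 lay 25.7-fold below.

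Among titin, Z-disc and M-band genes 1 of 5 fell and 4 did not pass. Myom2, which encodes an M-band protein of heart and fast skeletal muscle, read -5.26, -4.31 and -5.41 in Arid3b-null against -3.55, -3.59 and -3.79 in wild type. The groups do not overlap, and it fell 2.55-fold (change -1.35 ± 0.29, adjusted p = 0.0172). Arid3b-null replicate 3 was not well above background, so Myom2 entered the test only through wild type, the group where it was higher, and the size of its fold is uncertain. Under array-wide normexp the fold was 1.30 (adjusted p = 0.0551). The call was also lost without Arid3b-null replicate 1 or 3 (adjusted p = 0.0521 and 0.0527), without wild type replicate 1 or 2 (0.0582 and 0.0504) and without a filter on dim probes (0.0621).

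Csrp3, a LIM protein of the Z-disc, read -6.17, -3.53 and -3.55 in Arid3b-null, the first not well above background, against -4.13, -2.72 and -2.93 in wild type. Its change of -1.16 ± 0.76 did not pass (adjusted p = 0.308) and was -0.28 without Arid3b-null replicate 1 (adjusted p = 0.671). Ttn, the giant spring protein titin, read -3.55, -2.82 and -2.92 in Arid3b-null against -2.79, -2.83 and -1.86 in wild type. A further tested Ttn probe differed by -0.69 ± 0.43 beside -0.60 ± 0.32 for this one, and 2 others were too dim to test. Actn2, the sarcomeric alpha-actinin gene, and Myom1, of the M-band, differed by -0.04 ± 0.22 and 0.06 ± 0.50, neither passing, with Actn2 at 0.21 without Arid3b-null replicate 1, and Myom1 spanned -4.20 to -2.30 within wild type alone.

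Of the chaperones and muscle-restricted cofactors 1 of 4 tested members fell. Itgb1bp2, which encodes melusin, a muscle chaperone-like protein that binds integrin, read -5.03, -4.99 and -4.69 in Arid3b-null against -4.08, -4.54 and -4.03 in wild type. It fell 1.61-fold (change -0.68 ± 0.18, adjusted p = 0.0311), with groups that do not overlap. Under array-wide normexp the fold was 1.09 (adjusted p = 0.452), and the call was also lost without Arid3b-null replicate 1 or 2 (adjusted p = 0.0871 and 0.0896), without wild type replicate 1 or 3 (0.102 and 0.0846) and without a filter on dim probes (0.103).

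Ankrd1, a titin-associated protein that also acts in the nucleus, had a wider range than any member but Myh6: -5.93, -1.98 and -2.47 in Arid3b-null against -3.58, -2.30 and -3.34 in wild type. Its within-slide differences were -2.35, 0.31 and 0.88, so the sign turned between slides (change -0.39 ± 1.01, adjusted p = 0.806, or 0.85 without Arid3b-null replicate 1). Smyd1, a methyltransferase needed for sarcomere assembly, read -2.41, -3.01 and -2.41 in Arid3b-null against -2.29, -2.73 and -1.92 in wild type (change -0.30 ± 0.25, adjusted p = 0.426). A far dimmer Smyd1 probe, well above background on 1 of 3 Arid3b-null arrays, differed by -0.86 ± 0.24. Cryab, the small heat shock protein alpha-B crystallin, differed by 0.16 ± 0.14, did not pass and was not low in Arid3b-null replicate 1. Hspb7, another small heat shock protein, was well above background on 2 of 3 Arid3b-null and 1 of 3 wild-type arrays and was not tested.

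None of the 3 tested calcium handling genes passed, although 2 of them had groups that do not overlap. Atp2a2, the calcium pump of the sarcoplasmic reticulum, read -0.50, -0.15 and -0.11 in Arid3b-null against 0.16, 0.48 and 0.10 in wild type. Sln, which encodes sarcolipin, a small inhibitor of that pump, read -1.72, -2.03 and -1.96 in Arid3b-null against -1.40, -1.69 and -1.45 in wild type. Both were lower on all 3 Arid3b-null arrays, with changes of -0.50 ± 0.16 for Atp2a2 (adjusted p = 0.0615) and -0.39 ± 0.14 for Sln (adjusted p = 0.0759). A second Atp2a2 probe differed by -0.18 ± 0.14, with overlapping groups.

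In 46.2% of all genes with a value on every array the groups did not overlap, so a lack of overlap is common in these data, and 11 of 32 members had it, 2 higher and 9 lower, against 23% and 23.2% of all genes. Sln was not low in Arid3b-null replicate 1, the array in which Myh6 was lowest. Ryr2, the calcium release channel, read -6.15, -4.57 and -4.73 in Arid3b-null against -5.40, -4.62 and -4.80 in wild type, with the replicate 1 arrays lowest (change -0.21 ± 0.44, adjusted p = 0.751, or 0.29 without Arid3b-null replicate 1). Pln, phospholamban, the other inhibitor of the pump, was not well above background on any of the 6 arrays.

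No tested secreted or membrane gene passed over 6 arrays. Nppa, the atrial natriuretic peptide gene, which early working myocardium expresses in both chambers, read -5.35, -2.32 and -1.85 in Arid3b-null against -4.73, -3.60 and -3.31 in wild type. Arid3b-null replicates 2 and 3 were above all wild-type arrays and replicate 1 was below them all. The within-slide differences were -0.63, 1.28 and 1.46, and the change was 0.70 ± 0.92 (adjusted p = 0.608). Without Arid3b-null replicate 1 it was 1.79 (adjusted p = 0.0415), and without both replicate 1 arrays 1.37 (adjusted p = 0.0438).

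Nppb, the related B-type natriuretic peptide gene, read -5.64, -4.44 and -4.95 in Arid3b-null against -5.51, -4.75 and -5.05 in wild type. Its groups overlap, and its change was 0.09 ± 0.33 (adjusted p = 0.861). Popdc2, a cyclic AMP-binding membrane protein of heart and skeletal muscle, differed by 0.09 ± 0.15 and did not pass, with all 6 arrays between -0.65 and -0.24. Bmp10, a growth factor of the trabeculae, was well above background on 1 of 3 arrays in each group and was not tested.

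The later atrial and later ventricular members were also set against each other. Each gene was first centred on its mean over the 6 arrays, and the atrial mean covers Myh6, Myl4, Myl7 and Sln, the ventricular mean Myh7, Myl2 and Myl3. The atrial mean was -1.77, 0.48 and 0.38 in Arid3b-null against -0.19, 0.68 and 0.42 in wild type. The ventricular mean was -0.88, 0.01 and 0.09 in Arid3b-null against -0.07, 0.28 and 0.57 in wild type.

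Both means were lowest in Arid3b-null replicate 1. The atrial mean minus the ventricular mean was -0.89, 0.48 and 0.29 in Arid3b-null against -0.12, 0.39 and -0.15 in wild type, so the groups overlap and differ by -0.09 in the mean. Leaving out Arid3b-null replicate 1 turned this difference to 0.34. No test was made on these means, since their genes were chosen with earlier results known.

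**Figure D4:**
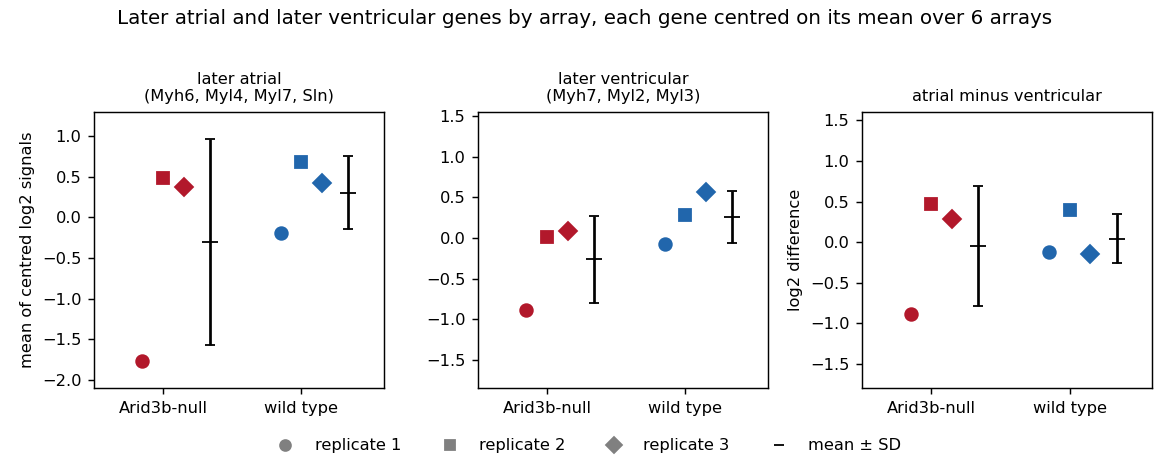
Mean of the centred log2 signals of 4 later atrial genes and 3 later ventricular genes, and the difference of these means, on each array, Arid3b-null (red) left of wild type (blue); markers give the replicate number and black bars the mean with its SD over 3 arrays. Arid3b-null replicate 1 is the lowest array in each panel, and the groups overlap in each panel.

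Other transcription factors of the heart were called about as often as all tested genes (26.6%): of 15, 3 rose and 1 fell. Nr2f2, a nuclear receptor of the atria and of mesenchyme, rose 1.75-fold (adjusted p = 0.00406). Irx4, a homeobox gene of ventricle, rose 1.73-fold (adjusted p = 0.0220) and Mef2c, a factor of heart and skeletal muscle, 1.40-fold (adjusted p = 0.0291). Isl1, a factor of heart progenitors and motor neurons, fell 2.69-fold (adjusted p = 0.00294). Irx4 did not pass without Arid3b-null replicate 1 (adjusted p = 0.0608), nor Mef2c under array-wide normexp (adjusted p = 0.0705). None of the 15 was at least 2-fold low in Arid3b-null replicate 1, where only 0.419% of all genes were.

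Of 14 tested genes among 19 other genes of contraction and conduction 1 rose and 3 fell, again near the 26.6% of all tested genes that were called. None of the 14 was at least 2-fold low in Arid3b-null replicate 1, where only 0.419% of all genes were. Ldb3 and Casq2, 2 of the 14, were at least 2-fold high there, against 1.43% of all genes. The Casq2 signal was not well above background on any Arid3b-null array, so its difference between these arrays is uncertain. Gja5, a gap junction gene of atria, conduction tissue and arteries, fell 6.49-fold (adjusted p = 0.000312), or 3.22-fold under array-wide normexp. Tcap, a cap of titin in heart and skeletal muscle, fell 1.82-fold (adjusted p = 0.00740). Casq2, the calcium store protein of heart and slow muscle, was called lower (adjusted p = 0.0155) and entered the test only through wild type. No Arid3b-null array stood well above background, so its fold is given as a bound, at least 2.66. That bound holds for the processed signal only. Under array-wide normexp the Casq2 fold was 1.15 and the gene did not pass (adjusted p = 0.182). Xirp1, an actin-binding protein of cell junctions in heart and skeletal muscle, rose 1.38-fold (adjusted p = 0.0412) and did not pass without Arid3b-null replicate 1 (0.0800), in the fit blocked by slide (0.0723) or under array-wide normexp (0.306). Des, the muscle intermediate filament gene desmin, did not pass over 6 arrays (change 0.48 ± 0.20, adjusted p = 0.128) and passed without Arid3b-null replicate 1 (change 0.67, adjusted p = 0.0491).

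Marker genes of tissues next to the heart were set beside these results. Heart muscle markers were measured on every array: the summed relative signal of Myh6, Myl7, Tnnt2, Nppa and Nkx2-5 was 2.14, 11.5 and 9.82 in Arid3b-null against 4.96, 12.4 and 9.26 in wild type. It was lowest in Arid3b-null replicate 1 and next lowest in wild type replicate 1, and 0 of the 5 markers passed. All 5 are members given above. Myh6 was the brightest of them on every array but Arid3b-null replicate 1, so the sum largely follows Myh6. In that array Myh6 lay 25.7-fold below the mean of Arid3b-null replicates 2 and 3. Nppa lay 9.65-fold below, Myl7 5.59-fold, Nkx2-5 1.61-fold and Tnnt2 1.55-fold.

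Of 10 markers of skeletal myotome 7 were tested, of which 4 fell and 0 rose, where 12.9% of all genes were called lower. Myog, a factor of muscle differentiation, fell 1.93-fold (adjusted p = 0.00230) and Chrna1, an acetylcholine receptor gene of muscle, fell 2.85-fold (adjusted p = 0.00473), or 1.35-fold under array-wide normexp. Chrna1 was well above background on 2 of 3 Arid3b-null arrays and entered the test only through wild type, so the size of its fold is uncertain. The muscle actin gene Acta1, the embryonic myosin gene Myh3 and the receptor gene Chrng did not pass, with changes of -0.14 ± 0.13, -0.15 ± 0.16 and 0.05 ± 0.20. The summed relative signal of the 7 was 5.68 to 6.20 in Arid3b-null and 7.28 to 9.33 in wild type, and 3 markers, Myf5, Myod1 and Mylpf, were too dim to test. Tnnc2 fell 1.66-fold (adjusted p = 0.0162) and Myf6 1.72-fold (adjusted p = 0.0105). None of the 7 was at least 2-fold low in Arid3b-null replicate 1, where only 0.419% of all genes were. The part of myotome in the falls of Tnnc1, Myom2 and Itgb1bp2 was not tested.

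In the list for liver bud and septum transversum, which lie behind the heart, the 4 hepatic markers that fell were Alb, Afp, Hnf4a and Ttr, of 7 tested, with 0 higher and 12.9% of all genes called lower. Wt1, a factor of septum transversum and its covering layer, was higher on all Arid3b-null arrays (change 0.53 ± 0.18, adjusted p = 0.0705) and passed without Arid3b-null replicate 1 (adjusted p = 0.0283), while Tbx18, of the same tissue, and the endoderm factor gene Foxa2 differed by -0.24 ± 0.27 (adjusted p = 0.556) and by -0.30 ± 0.17. Alb fell 7.51-fold (adjusted p = 0.0381), Afp 2.72-fold (adjusted p = 0.0247), Hnf4a 2.37-fold (adjusted p = 0.00285) and Ttr 2.14-fold (adjusted p = 0.00346). Alb, like Myh6, was far lower in Arid3b-null replicate 1, which read -8.25 and was not well above background, than in Arid3b-null replicates 2 and 3 (-5.23 and -5.16). The size of the Alb fold is therefore uncertain: it was 3.71 without that array (adjusted p = 0.00306) and 1.66 under array-wide normexp, and Alb entered the test only through wild type. The summed relative signal of the 7 was 4.37 to 8.48 in Arid3b-null and 10.2 to 11.5 in wild type. Afp was the brightest of the 7 on every array, so the sum largely follows Afp.

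Of 5 primitive erythroid markers 2 fell, where 12.9% of all genes were called lower: Klf1 2.74-fold (adjusted p = 0.00168) and Gata1 1.76-fold (adjusted p = 0.00418). The summed relative signal of the 5 was 453 to 541 in Arid3b-null and 569 to 751 in wild type. That sum is almost wholly signal of the globin genes Hbb-bh1, Hbb-y and Hba-x, which did not pass (adjusted p = 0.149, 0.186 and 0.0749). In the smooth muscle list 0 of 4 tested markers passed, with sums of 21.4 to 29.7 in Arid3b-null and 21.5 to 28.1 in wild type, and Cnn1 was 2.54-fold low in Arid3b-null replicate 1. In the list of endocardium and endothelium 0 of 6 passed, with sums of 4.60 to 6.23 in Arid3b-null and 5.54 to 9.01 in wild type. Kdr was the brightest of the 6 on every array, so these sums largely follow Kdr. None of these 6 was at least 2-fold low in Arid3b-null replicate 1, where only 0.419% of all genes were. The part of these cell types in the results for the members was not tested.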

How the data were processed

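Total RNA of 3 Arid3b-null and 3 wild-type pools was amplified, Cy3-labelled and hybridised to one-colour Agilent arrays, per the labels' protocols. Per the file headers, the deposited intensity values came from Feature Extraction 10.7.3.1 (protocol GE1_107_Sep09, design 026655, build mm9). The value table the authors deposited holds log2 values of 24181 probes, already matched between arrays by a method not given in the sources used here; it correlated at 0.999 to 1.00 with each array's log2 processed signal and served as an alternative.

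Control spots were left out, the 100 to 169 outlier spots of an array were treated as missing, and repeated spots of a probe were averaged. Values are log2 of the processed signal minus the array's 75th percentile. Accessions matched 1 symbol of the RefSeq gene table (assembly GRCm38.p6, names only) for 26424 of 39429 probes (67.0%) and none for 13005. Testing was limited to the 24431 probes that stood well above background on every array of Arid3b-null, of wild type or of both, and the brightest tested probe stood for its gene. A gene without a value on 1 array was fitted on the others. Genes were tested with limma 3.58.1 (lmFit, then eBayes; R 4.3.3), with two-sided p-values adjusted by Benjamini-Hochberg across the 19802 genes and a threshold of 0.05; the fit was tested on simulated data. A bound sets the brighter group's mean against the dimmer group's, with each array of the dimmer group raised to the lowest value well above background where it lay under it.

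Same-numbered arrays share a slide, per the file headers, and their deviations from the group means correlated across 19783 genes at 0.163, 0.387 and 0.278. For arrays on different slides the values were -0.346 to 0.117. Across the 32 members they were 0.744, 0.705 and 0.196 on the same slide and -0.736 to 0.603 on different slides. Because of the correlations within slides, the slide was also fitted as a block. A summed relative signal adds the signals of a list's tested genes, each in units of the 75th percentile. All members are accounted for; called members, the largest change of each role and a fixed set of marker members are given array by array, and other lists by up to 4 called genes with the smallest adjusted p. The members and lists were chosen with earlier results of these data known. The depth of an array has no count; the number of arrays limits the precision.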

Additional observations from a re-analysis of the deposited data

How the results depend on the processing

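With the replicate number, which is the slide, as a block, 2427 genes were higher and 2349 lower, and among the members 2 were higher and 6 lower; beyond the members named in the report the block changed no member's call. Normexp with the local background ended nearly all calls: 2 genes were higher and 0 lower by limma, 0 members were called in either direction, and Arid3b changed by -1.38 (adjusted p = 0.299). At an unadjusted p under 0.05 that setting had 1018 genes higher and 887 lower, and 1 member higher and 2 lower; no other tool was run. Its cause was not tested. With no filter on dim probes, which tests 32530 genes in place of 19802, 1288 genes were higher and 998 lower, and 1 member was higher and 0 lower (2 and 8 at an unadjusted p under 0.05). Median scaling left 1 member higher, and array-wide normexp 1 higher and 2 lower. Leaving out the slide of both replicate 1 arrays, an alternative chosen after seeing the data that tests 2 arrays a group, left 629 genes higher and 503 lower, and 1 member in each direction.

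Leaving out each array in turn gave 1659 to 2047 genes higher and 1205 to 2037 lower, 1 to 4 members higher and 1 to 3 lower, and a median change of the members of -0.43 to 0.18. The highest median, and the 4 higher members, came without Arid3b-null replicate 1. The change turned sign in this way for Myh6 (-2.10 to 0.35), Myh7 (-0.10 to 0.76), Myl4 (-0.89 to 0.090), Myl7 (-0.71 to 0.55), Mybpc3 (-0.54 to 0.61), Tnnt2 (-0.12 to 0.21), Tnni1 (-0.16 to 0.14), Actn2 (-0.21 to 0.21), Myom1 (-0.37 to 0.57), Ankrd1 (-1.13 to 0.85), Ryr2 (-0.50 to 0.29) and Nppb (-0.19 to 0.41). It also turned with both replicate 1 arrays left out for Myl7 (0.23), Mybpc3 (0.32), Tnni1 (0.13), Actn2 (0.28), Myom1 (-0.052), Ankrd1 (0.59) and Ryr2 (0.058). Under normexp with the local background it turned for Nkx2-5 (-0.29), Tnni1 (0.090), Myom1 (-0.42), Nppa (-0.13) and Nppb (-0.88). Under array-wide normexp it turned for Tnnt2 (-0.0062), Actn2 (0.00029), Ankrd1 (0.067) and Ryr2 (0.043), and under quantile normalization for Tnni1 (0.0072). None of these turned values came from a member called over all 6 arrays. The later atrial minus later ventricular difference was -0.34 to 0.34 over the arrays left out in turn. Dim members such as Myom2 and Itgb1bp2 are limited by signal over background.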
